A study of Mus musculus with 12 samples.

Results

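The genes described here are the nuclear-encoded subunits of the mitochondrial respiratory chain and ATP synthase. They were chosen by name: array targets beginning NDUFA, NDUFB, NDUFC, NDUFS, NDUFV, UQCR, COX4I, COX5, COX6, COX7, COX8 or ATP5, together with the 4 SDH genes, without the muscle isoforms Cox6a2, Cox7a1 and Cox8b and without the NDUFAF assembly factors. The rule used no measured value and took 113 of 45281 probes, which stood for 76 genes. Of these, 68 genes had a detected probe and were tested among 11453 genes in all, each through its brightest detected probe: 34 of 35 genes of complex I, 3 of 4 of complex II, 5 of 7 of complex III, 10 of 14 of complex IV and 16 of 16 of complex V. Ndufs1, Sdha, Uqcrfs1, Uqcrq, Cox4i2, Cox6b2, Cox7b2 and Cox8c were not detected in any group and were not tested. The low-signal filter was passed on all 12 arrays by 67 of the 68 genes, the exception being Atp5k. Under current nomenclature 3 of the 68 are not subunits: the target NDUFA12L is Ndufaf2, an assembly factor of complex I, and the targets ATP5SL and ATP5S are Dmac2 and Dmac2l.

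The respiratory chain passes electrons from NADH (through complex I) and from succinate (through complex II) by way of ubiquinone, complex III and cytochrome c to oxygen at complex IV, and complex V uses the resulting proton gradient to make ATP. Most subunits are encoded in the nucleus and imported, and a small set is encoded by mitochondrial DNA and must be matched to them during assembly. In skeletal muscle, the differentiation of myoblasts into myotubes is known for an increase in mitochondrial content and a greater reliance on oxidative metabolism.

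The samples were cultures of C2C12, an established mouse myoblast line that fuses into myotubes when serum is withdrawn, measured on 12 Illumina MouseWG-6 bead arrays, 2 for each of 6 groups. The DMSO groups received the solvent and the embelin groups received 10 uM embelin, a plant benzoquinone known as an inhibitor of the apoptosis inhibitor XIAP. Each treatment was given in growth medium (20% fetal bovine serum) and in a differentiation medium of 2% horse serum, the latter for 24 h and for 48 h. For the growth-medium groups the labels conflict, giving a time of 0 h in one field and 24 h in another, so the length of exposure there is not settled. No genotype was altered, all groups are 1 cell line, and the labels do not say whether the replicates were separate cultures, so the p-values reflect the scatter among these arrays alone, and that scatter could be technical.

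Between 15031 and 16314 probes were detected per array, and the 75th percentile of raw signal ranged from 123.1 to 154.9. The 2 arrays of embelin in growth medium differed from each other more than those of other groups: the root mean square SD over all genes was 0.234 there against 0.134 to 0.176 (log2). Of 7 myogenic markers, 6 were detected on every array. All 6 read higher on replicate 2 of embelin in growth medium than on any other growth-medium array. Myog read 9.61 there (normalised log2), against 7.56 on replicate 1 and 7.68 and 7.62 with DMSO. Comparisons that use embelin in growth medium include this array. Of the 4 fibroblast markers, Pdgfra was detected on every array. No adipocyte marker of 5, no neural marker of 4 and no cartilage or bone marker of 3 was detected on any array, and macrophage and endothelial markers reached detection for 2 and 1 genes on some array. Values below are normalised log2 signals, and differences are log2 fold changes from a limma fit of all 12 arrays, with p-values adjusted by the Benjamini-Hochberg method over all 11453 genes and called under 0.05. A bulk signal cannot tell fewer cells of a type from less RNA per cell.

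After 48 h in differentiation medium, subunit genes of all 5 complexes were lower with embelin than with DMSO. The limma test called 52 of 68 lower and 0 higher, where 19.9% of all genes were called lower and 19.8% higher. At an unadjusted p under 0.05 it had 56 lower and 0 higher, where 24.1% and 24% of all genes were. The median log2 fold change was -0.49 over the 68 genes and 0.00 over all genes tested. With embelin the median member thus stood at 0.712 of its DMSO level at 48 h, a difference of -28.8%. Both embelin arrays lay below both DMSO arrays for 61 of the 68 genes and above them for 2, against 36.3% and 35.9% of all genes. The difference between treatments was modest and graded: the gene with the largest, Ndufb2, differed from its DMSO level by -44.3%. With 1 array left out at a time, 37 to 53 members were called lower, and 33 of the 52 were called in all 12 such fits.

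**Figure D1:**
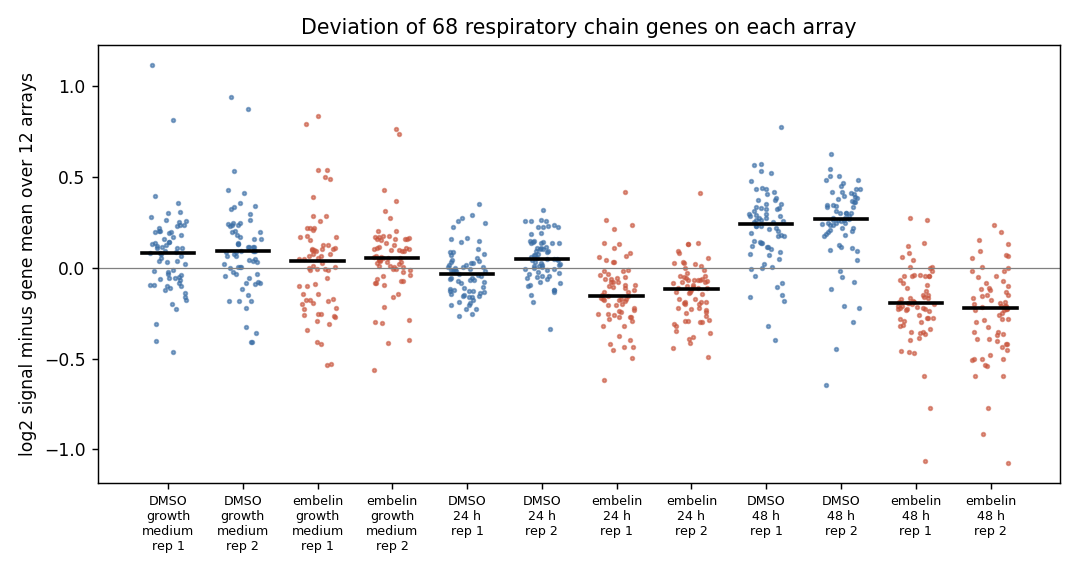
Normalised log2 signal of each of the 68 respiratory chain genes minus that gene's mean over the 12 arrays, by array; points are genes and black bars are medians. The medians were 0.24 and 0.27 on the 2 DMSO arrays at 48 h and -0.20 and -0.22 on the 2 embelin arrays at 48 h.

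Array by array, the median member deviated from its own mean over the 12 arrays by 0.24 and 0.27 on the DMSO arrays at 48 h and by -0.20 and -0.22 on the embelin arrays at 48 h. At 24 h it deviated by -0.04 and 0.05 with DMSO and by -0.15 and -0.12 with embelin. In growth medium the deviations were 0.08 and 0.09 with DMSO and 0.04 and 0.05 with embelin. The highest medians were therefore those of the DMSO arrays at 48 h and the lowest those of the embelin arrays at 48 h, with the 2 arrays of each pair close together. The median of all genes stayed between -0.05 and 0.05 on the 12 arrays.

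Complex I, the NADH dehydrogenase, had 24 of 34 genes lower at 48 h, with a median of -0.51. Both counts include the assembly factor Ndufaf2, which was called lower. Ndufs8, a core subunit that carries iron-sulfur clusters, read 11.75 and 11.76 with DMSO and 10.99 and 10.85 with embelin. Its log2 fold change was -0.83 (SE 0.11, adjusted p = 0.000221). In the other 4 groups Ndufs8 lay between 11.27 and 11.71, so the embelin arrays at 48 h were the lowest of the 12. Ndufb2, an accessory subunit of the membrane arm, read 8.00 and 8.13 with DMSO and 7.58 and 6.85 with embelin, a change of -0.84 (SE 0.19, adjusted p = 0.00585). The 2 embelin arrays differed from each other by nearly as much as the groups did, and the groups did not overlap. Ndufb10, another membrane-arm accessory subunit, read 9.71 and 9.60 against 9.00 and 8.64 (log2 fold change -0.83, SE 0.13, adjusted p = 0.000511). Ndufb9, also of that arm, read 10.18 and 9.94 against 9.39 and 9.11 (log2 fold change -0.81, SE 0.12, adjusted p = 0.000444). For these genes, too, both embelin arrays lay below both DMSO arrays. By place in the complex, 5 of 6 core subunits were lower with a median of -0.48, as were 18 of 27 accessory subunits with a median of -0.52.

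Genes of complex I that did not pass at 48 h included Ndufa1, Ndufa2, Ndufa6, Ndufa7, Ndufa10, Ndufa13 and the acyl carrier protein gene Ndufab1. Ndufb4 had a difference of -0.73 (SE 0.30, adjusted p = 0.0748), but its DMSO arrays read 7.32 and 6.42 and its embelin arrays 5.95 and 6.33, the widest SE of the 68 genes. Ndufb11 was the member with the highest value, 0.39 (adjusted p = 0.174).

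**Figure D2:**
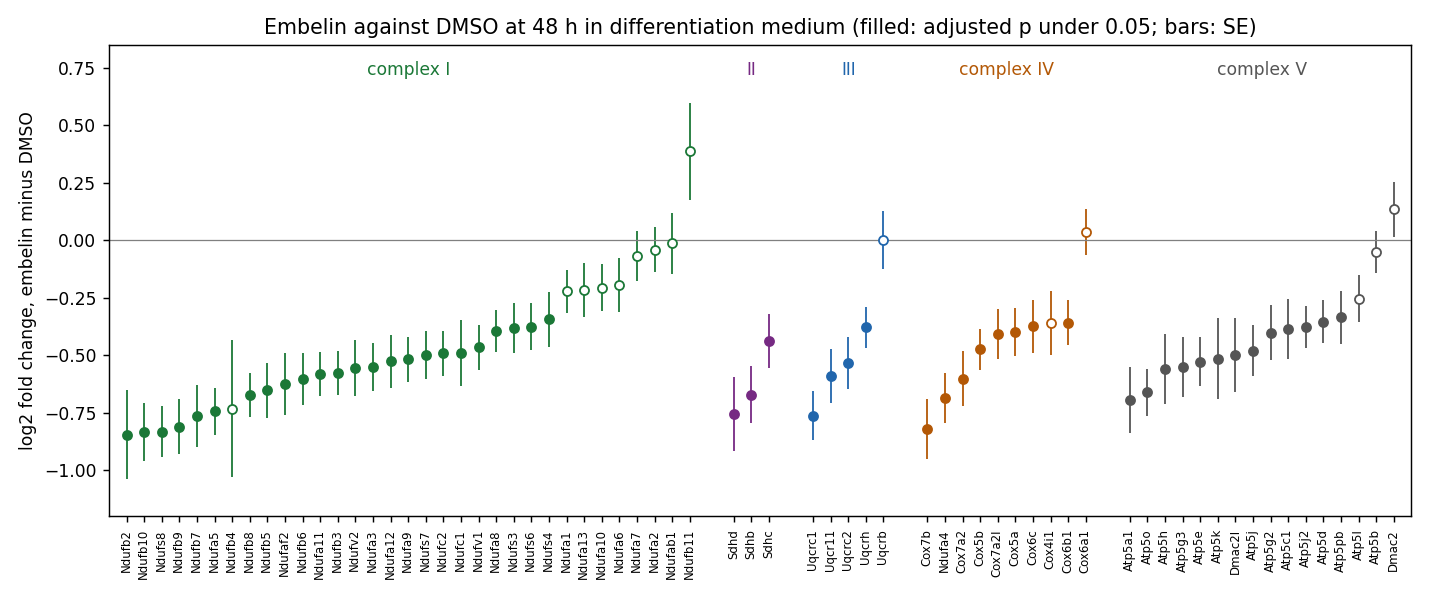
Log2 fold change of embelin minus DMSO at 48 h for 67 of the 68 genes, ordered within each complex; bars are standard errors and filled points had an adjusted p under 0.05. Of 67 points, 52 are filled and all of those lie below 0. Counted over all 68 tested genes, drawn or not, 24 of 34 were called in complex I and 13 of 16 in complex V.

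Complex II is succinate dehydrogenase, which belongs both to the chain and to the tricarboxylic acid cycle, and its 3 detected genes were all lower at 48 h, with a median of -0.67. Sdhd, a membrane anchor subunit, read 8.95 and 8.76 with DMSO and 8.38 and 7.82 with embelin (log2 fold change -0.75, SE 0.16, adjusted p = 0.00394). Sdhb, the iron-sulfur subunit, read 10.61 and 10.70 against 10.09 and 9.88 (log2 fold change -0.67, SE 0.12, adjusted p = 0.00163). Sdhc, the other membrane anchor, read 12.37 and 12.35 against 11.99 and 11.86 (log2 fold change -0.44, SE 0.12, adjusted p = 0.0129). The groups did not overlap for any of these 3 genes. Sdhc did not keep its call when either DMSO array at 48 h was left out (adjusted p = 0.0526 for replicate 1 and 0.0537 for replicate 2), or replicate 2 of embelin at 48 h (0.0938), or under median scaling (0.0646).

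Complex III, which passes electrons from ubiquinol to cytochrome c, had 4 of 5 genes lower at 48 h, with a median of -0.53. Uqcrc1, a core protein of the complex, read 11.52 and 11.50 with DMSO and 10.81 and 10.69 with embelin (log2 fold change -0.76, SE 0.11, adjusted p = 0.000304). Uqcr11, a small subunit, read 13.16 and 13.15 against 12.64 and 12.49 (log2 fold change -0.59, SE 0.12, adjusted p = 0.00251). For both genes the 2 arrays of a group differed by less than the groups did. Uqcrc2, the partner core protein of Uqcrc1, read 12.75 and 12.92 against 12.39 and 12.21 (log2 fold change -0.53, SE 0.11, adjusted p = 0.00368). Uqcrh, the hinge protein that contacts cytochrome c1, read 13.62 and 13.63 against 13.22 and 13.27 (log2 fold change -0.38, SE 0.09, adjusted p = 0.00666). Uqcrb, a ubiquinone-binding subunit, did not pass, at 8.18 and 8.36 against 8.24 and 8.31 (log2 fold change 0.00, adjusted p = 0.995).

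Complex IV, cytochrome c oxidase, had 8 of 10 genes lower at 48 h, with a median of -0.40. Cox7b, a small subunit, read 7.17 and 7.03 with DMSO and 6.30 and 6.26 with embelin (log2 fold change -0.82, SE 0.13, adjusted p = 0.000719). Ndufa4, named for complex I and now placed in complex IV, read 12.23 and 12.42 against 11.57 and 11.72 (log2 fold change -0.69, SE 0.11, adjusted p = 0.00067). For both genes the embelin arrays at 48 h were the lowest of all 12. Cox7a2 read 8.66 and 8.97 against 8.27 and 8.16 (log2 fold change -0.60, SE 0.12, adjusted p = 0.00261). Its relative Cox7a2l, a supercomplex assembly factor, read 11.43 and 11.43 against 11.03 and 11.02 (log2 fold change -0.41, SE 0.11, adjusted p = 0.0129). Cox5b read 13.54 and 13.51 against 13.08 and 13.03 (log2 fold change -0.47, SE 0.09, adjusted p = 0.00201). Both embelin arrays lay below both DMSO arrays for these 3 genes, and for Cox6b1 the difference was -0.36 (adjusted p = 0.0147). Cox4i1, the common isoform of subunit 4, did not pass at -0.36 (adjusted p = 0.0634), with 13.41 and 13.36 against 13.18 and 12.87. Cox6a1, the non-muscle isoform of subunit 6a, did not pass either, at 12.59 and 12.67 against 12.64 and 12.70 (log2 fold change 0.04, adjusted p = 0.8).

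Complex V, ATP synthase, had 13 of 16 genes lower at 48 h, with a median of -0.44. These counts include Dmac2l, which was called lower, and Dmac2, which was not called. Neither is a subunit. Atp5a1, the alpha subunit of the catalytic F1 head, read 10.11 and 10.08 with DMSO and 9.52 and 9.27 with embelin (log2 fold change -0.69, SE 0.14, adjusted p = 0.00329). Atp5o, a peripheral stalk subunit that holds the head in place, read 13.55 and 13.63 against 12.97 and 12.89 (log2 fold change -0.66, SE 0.10, adjusted p = 0.00054). In both genes the groups did not overlap. Atp5h, also of the stalk, read 11.52 and 11.35 against 11.12 and 10.63 (log2 fold change -0.56, SE 0.15, adjusted p = 0.0142). Atp5g3, which encodes the ring-forming subunit c, read 14.53 and 14.83 against 14.04 and 14.21 (log2 fold change -0.55, SE 0.13, adjusted p = 0.00662), and Atp5g2, another gene for the same subunit, had -0.40 (adjusted p = 0.0205). Leaving out replicate 1 of DMSO (adjusted p = 0.0838) or replicate 2 of embelin (-0.32, adjusted p = 0.135) at 48 h ended the call of Atp5h, and Atp5g3 did not pass without replicate 2 of DMSO (0.066) or replicate 1 of embelin (0.0529). Atp5b, the catalytic beta subunit, did not pass, at 14.95 and 14.97 against 14.88 and 14.94 (log2 fold change -0.05, adjusted p = 0.707). Its raw signals, 25633.5 to 36923.3, lay near the top of the range of these arrays, where the highest probe read 49278.2. All 4 peripheral stalk genes were lower (median -0.52), as were 4 of 5 genes of the F1 head (median -0.38) and 4 of 5 of the membrane part (median -0.40).

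**Figure D3:**
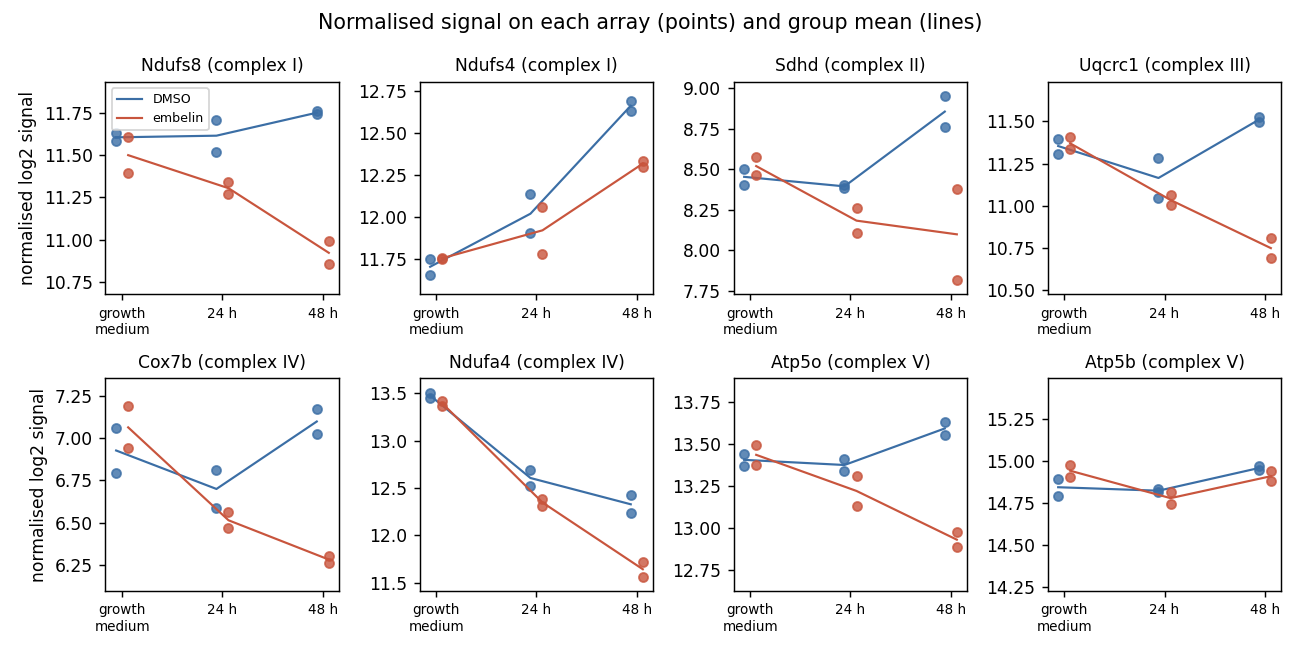
Normalised log2 signal of 8 genes on each array (points) and group means (lines), with blue for DMSO and red for embelin, in growth medium and at 24 h and 48 h. Ndufs8 read 10.99 and 10.85 with embelin at 48 h against 11.75 and 11.76 with DMSO, whereas Atp5b stayed between 14.74 and 14.98 on all 12 arrays.

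For each complex the promoter of a called gene with a single promoter entry is shown. For complexes I to IV this was the lowest called gene at 48 h. For complex V it was Atp5o (-0.66), the next lowest after Atp5a1 (-0.69), which is not shown. The genes were picked for low values, so their shared direction at 48 h follows from the choice. The windows run from 250 bases before to 50 after the annotated start, from RefSeq on GRCm38.p6, and lie at chr6:39592315-39592614 on the plus strand (Ndufb2), chr9:50603800-50604099 on the minus strand (Sdhd), chr9:108936398-108936697 on the plus strand (Uqcrc1), chrX:106015450-106015749 on the plus strand (Cox7b) and chr16:91931581-91931880 on the minus strand (Atp5o). Capitals mark matches on either strand to the letters of the motifs searched: CGCANGCG for NRF1, CCGGAAG for the ETS factor GABPA, AAGATGGCG for YY1 and TCAAGGTCA for the ERR receptors.
Ndufb2: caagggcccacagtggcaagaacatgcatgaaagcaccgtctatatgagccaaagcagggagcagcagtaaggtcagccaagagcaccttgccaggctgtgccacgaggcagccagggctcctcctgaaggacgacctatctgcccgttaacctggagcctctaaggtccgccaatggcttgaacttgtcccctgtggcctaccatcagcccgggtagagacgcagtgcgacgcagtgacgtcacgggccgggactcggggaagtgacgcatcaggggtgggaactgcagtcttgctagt
Sdhd: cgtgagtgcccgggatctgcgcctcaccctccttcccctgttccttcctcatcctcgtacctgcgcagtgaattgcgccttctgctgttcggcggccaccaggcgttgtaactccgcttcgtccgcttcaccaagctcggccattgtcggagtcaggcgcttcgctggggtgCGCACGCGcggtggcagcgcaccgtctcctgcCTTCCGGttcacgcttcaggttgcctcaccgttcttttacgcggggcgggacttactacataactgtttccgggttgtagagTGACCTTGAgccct
Uqcrc1: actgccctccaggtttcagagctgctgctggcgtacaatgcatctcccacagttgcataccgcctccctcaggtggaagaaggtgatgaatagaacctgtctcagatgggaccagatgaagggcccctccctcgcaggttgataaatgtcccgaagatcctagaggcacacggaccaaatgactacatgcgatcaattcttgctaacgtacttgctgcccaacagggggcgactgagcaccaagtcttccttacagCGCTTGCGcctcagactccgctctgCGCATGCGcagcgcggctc
Cox7b: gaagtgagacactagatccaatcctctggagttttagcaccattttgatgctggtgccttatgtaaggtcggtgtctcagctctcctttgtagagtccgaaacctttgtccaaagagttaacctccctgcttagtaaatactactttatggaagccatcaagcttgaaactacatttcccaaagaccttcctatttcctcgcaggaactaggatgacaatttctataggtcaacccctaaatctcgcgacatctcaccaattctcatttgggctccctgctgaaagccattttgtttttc
Atp5o: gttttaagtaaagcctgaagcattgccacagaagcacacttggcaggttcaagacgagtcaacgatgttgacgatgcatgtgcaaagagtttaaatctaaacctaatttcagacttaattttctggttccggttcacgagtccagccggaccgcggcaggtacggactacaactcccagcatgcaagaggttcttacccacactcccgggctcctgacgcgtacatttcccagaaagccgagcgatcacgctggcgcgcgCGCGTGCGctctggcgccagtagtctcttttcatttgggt
Sdhd held an NRF1 match, an ETS match and an ERR match, with their first bases at -78, -46 and 37 relative to the start. Uqcrc1 held NRF1 matches at 7 and 32, Atp5o held an NRF1 match at 11, and the windows of Ndufb2 and Cox7b held no match. Promoter entries were found for 59 of the 68 genes, and 37 of these (62.7%) held at least 1 of the 4 motifs, against 18.7% of 27025 genes with an entry. The shares were 40.7% against 9.22% for NRF1, 25.4% against 9.93% for ETS, 13.6% against 1.64% for YY1 and 3.39% against 0.466% for ERR, and no match of one motif overlapped another's. The 27025 genes include ones not detected here. Among genes called lower at 48 h, 31 of 47 held a match, and among those not called, 6 of 12. By motif, the shares in called and not-called members were 38.3% and 50% for NRF1 and 27.7% and 16.7% for ETS. They were 14.9% and 8.33% for YY1 and 4.26% and 0% for ERR. A match is a description of letters in these windows, with no test.

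At 24 h, 0 of 68 members were called in either direction, where 0.0349% of all genes were called lower and 0.0175% higher. At an unadjusted p under 0.05 in the same limma fit, 11 members were lower and 0 higher, against 5.38% and 5.67% of all genes. The median log2 fold change was -0.16 over the members and 0.00 over all genes, and 61 of 68 members had a value below 0. Both embelin arrays lay below both DMSO arrays for 40 members and above them for 2, against 22.3% and 22.6% of all genes. Ndufs8 read 11.52 and 11.71 with DMSO and 11.27 and 11.34 with embelin at 24 h, and Sdhb 10.31 and 10.37 against 9.92 and 10.07. Both showed non-overlapping groups but no call. In growth medium 0 members were called, where 0% of all genes were called in either direction. At an unadjusted p under 0.05 in the limma fit, 0 members passed, against 2.45% of all genes lower and 3.43% higher. The median there was -0.05 and both embelin arrays lay below both DMSO arrays for 20 members and above them for 3, against 17.1% and 15% of all genes. Sdhd, for example, read 8.40 and 8.50 with DMSO and 8.46 and 8.57 with embelin in growth medium, with overlapping arrays.

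During differentiation with DMSO, calls among the subunit genes went in both directions on the first day and only upward on the second. From growth medium to 24 h, 6 members rose and 13 fell, against 26.1% and 31.5% of all genes. Both were smaller shares than among all genes. From 24 h to 48 h, 19 rose and 0 fell in the limma fit, against 15.2% and 17.6% of all genes, with a median of 0.23. At an unadjusted p under 0.05 these counts were 30 and 2, against 20% and 23.2% of all genes. From growth medium to 48 h, 20 rose and 6 fell, against 27.4% and 34.6%, with a median of 0.17. There the share of rises was near that of all genes and the share of falls was below it. These counts rest on few arrays and on the scaling. The second-day rises numbered 8 without replicate 1 of DMSO at 24 h, 8 without replicate 1 of DMSO at 48 h and 6 without replicate 2 of DMSO at 48 h. For growth medium to 48 h, the rises were 13 without replicate 1 of DMSO in growth medium and 10 without replicate 2 of DMSO at 48 h, and the falls 3 without replicate 2 of DMSO in growth medium. On the first day the rises were 2 without replicate 2 of DMSO in growth medium and 3 without replicate 2 of DMSO at 24 h, and the falls were 8 and 7 without replicate 1 or 2 of DMSO in growth medium and 6 without replicate 1 of DMSO at 24 h. Median scaling moved the median of all genes by -0.33 between growth medium and 48 h, and there turned the member median to -0.11 with 4 rises and 15 falls, so the direction over the whole 48 h depends on the scaling. Relative to the median of all genes, the members stood at 0.26 as reported and at 0.22 under median scaling. Over the same steps Pdgfra, the detected fibroblast marker of 4, read 7.14 and 7.06 in growth medium, 8.92 and 8.88 at 24 h and 7.22 and 7.27 at 48 h with DMSO. It rose by 1.8 on the first day (adjusted p = 1.33e-06) and changed by -1.65 on the second (adjusted p = 6.33e-06). With embelin it read 9.01 and 8.95 at 24 h and 7.45 and 7.59 at 48 h, where its difference from DMSO was 0.27 (adjusted p = 0.0822). Among the tested myogenic markers, Myod1 was lower with embelin at 48 h (-0.59, adjusted p = 0.0167). Myog, Des, Cdh15, Itga7 and Chrna1 were not called there. On the second day with DMSO, Des (0.50, adjusted p = 0.0392) and Itga7 (0.60, adjusted p = 0.0298) rose, and the others were not called. The part of any of these markers in the member changes was not tested.

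Ndufs4, an accessory subunit whose loss is known to cause mitochondrial encephalopathy in mice, had the largest rise over 48 h with DMSO. It read 11.75 and 11.66 in growth medium, 11.90 and 12.14 at 24 h and 12.63 and 12.69 at 48 h, a rise of 0.96 over the whole course (SE 0.12, adjusted p = 4.31e-05) and of 0.64 on the second day (adjusted p = 0.00248). Ndufb9 had the next largest second-day rise with DMSO, from 9.49 and 9.55 to 10.18 and 9.94 (0.54, adjusted p = 0.00662), which was 0.42 without replicate 1 at 48 h (adjusted p = 0.0547). With embelin Ndufs4 read 11.75 and 11.76, then 11.78 and 12.06, then 12.33 and 12.30, a rise of 0.56 (adjusted p = 0.00181, and 0.0552 under median scaling). Its dimmer detected probes had 0.23, 0.16 and 0.14 over that course with embelin (adjusted p = 0.0594, 0.292 and 0.316 over all probes). For embelin minus DMSO at 48 h they had -0.56, -0.66 and -0.64 (adjusted p = 0.00126, 0.00198 and 0.0016 over all probes). The size of both changes thus depended on the probe. By its brightest probe Ndufs4 was highest at 48 h under both treatments, and at 48 h it was 0.34 lower with embelin (adjusted p = 0.041). That last call was lost in 6 of 12 fits that left out an array, those without a DMSO array in growth medium (adjusted p = 0.0558 for each), a DMSO array at 48 h (0.088 and 0.156) or an embelin array at 48 h (0.104 and 0.152), and under median scaling (0.0531). Uqcrh rose on the first day, from 12.81 and 12.86 to 13.62 and 13.59 with DMSO (0.77, adjusted p = 3.46e-05, and 0.79 by 48 h) and from 12.85 and 12.86 to 13.51 and 13.41 with embelin (0.60, adjusted p = 0.000194). Its growth-medium arrays did not overlap its arrays at 24 h under either treatment. Under median scaling the change of Uqcrh with embelin was 0.28 (adjusted p = 0.0563).

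Ndufa4 and the assembly factor Ndufaf2 went the other way under both treatments. Ndufa4 fell from 13.45 and 13.51 in growth medium to 12.52 and 12.69 at 24 h and 12.23 and 12.42 at 48 h with DMSO, a change of -0.87 by 24 h (adjusted p = 5.91e-05) and of -1.15 by 48 h (SE 0.11, adjusted p = 5.78e-06). With embelin it fell from 13.42 and 13.37 to 12.31 and 12.38 and then to 11.57 and 11.72, a change of -1.05 by 24 h (adjusted p = 1.99e-05) and of -1.75 by 48 h (adjusted p = 3.31e-07). The arrays of the 3 times did not overlap with embelin, and its second-day change there was -0.70 (adjusted p = 0.000918). Ndufaf2 fell from 10.17 and 9.99 to 8.90 and 8.60 at 48 h with DMSO (-1.33, adjusted p = 9.55e-06) and from 9.89 and 9.82 to 8.28 and 7.98 with embelin (-1.72, adjusted p = 1.62e-06). By 24 h its changes were -1.19 with DMSO and -1.24 with embelin. Its second-day change with embelin was -0.48 (adjusted p = 0.0221), a call lost without replicate 1 or 2 of embelin at 24 h (0.0563 and 0.124), without replicate 2 of embelin at 48 h (0.171) and under median scaling (0.0707).

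With embelin, from growth medium to 24 h, 3 members rose and 23 fell, against 27.3% and 29.9% of all genes. The share of falls was near that of all genes and the share of rises was below it. From growth medium to 48 h, 6 rose and 27 fell, against 30.4% and 32.7%, with a median of -0.22. From 24 h to 48 h, 2 rose and 5 fell, against 13.8% and 15% of all genes, smaller shares both ways. The first-day falls numbered 14 without either embelin array at 24 h, and the first-day rises 6 without replicate 2 of embelin in growth medium. The second-day rises were Uqcrb and Ndufs4. Uqcrb read 8.01 and 7.69 at 24 h and 8.24 and 8.31 at 48 h (0.42, adjusted p = 0.0293), and Ndufs4 had 0.40 (adjusted p = 0.0297). The adjusted p of Uqcrb was 0.0917 under median scaling and 0.052 without the detection filter. The second-day rises numbered 1 without either embelin array at 24 h and 0 without either at 48 h. The second-day falls numbered 1 without either embelin array at 24 h or without replicate 2 at 48 h. Uqcrb lost its call without replicate 2 of embelin at 24 h (0.27, adjusted p = 0.226) and without replicate 1 or 2 of embelin at 48 h (0.0794 and 0.137), and Ndufs4 lost its call without replicate 1 of embelin at 24 h (0.26, adjusted p = 0.218) and without replicate 1 or 2 of embelin at 48 h (0.119 and 0.0975).

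**Figure D4:**
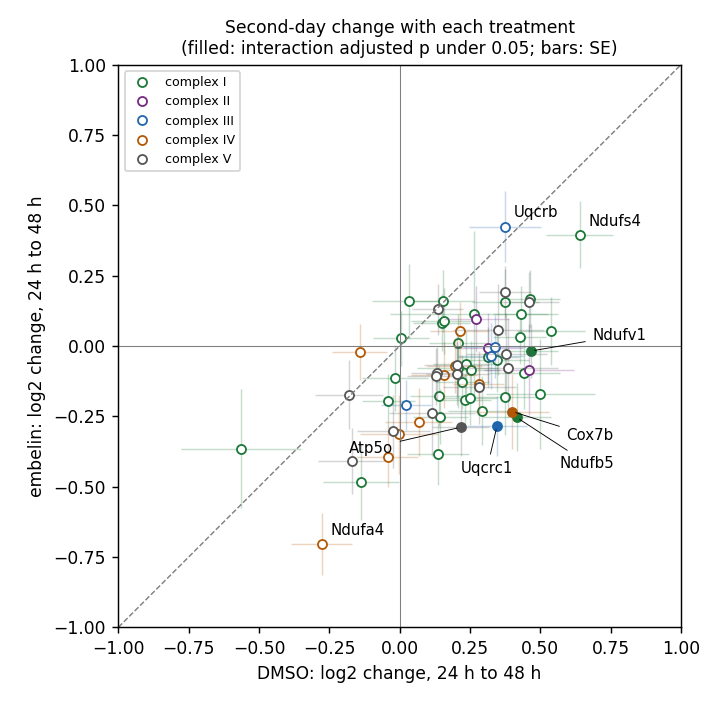
Log2 change from 24 h to 48 h with DMSO (horizontal axis) and with embelin (vertical axis) for the 68 genes; bars are standard errors, the dashed line marks equal change, and filled points had an interaction adjusted p under 0.05. The DMSO change was above the embelin change for 61 of 68 genes, and 5 points are filled.

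The test of the difference between effects asked whether the embelin effect at 48 h differed from that in growth medium. In the limma fit it called 28 of 68 members lower and 0 higher, against 12.5% and 11.4% of all genes, with a member median of -0.46. At an unadjusted p under 0.05 the counts were 42 and 0, against 18.5% and 18.6% of all genes. The differences were -0.96 for Cox7b (SE 0.19, adjusted p = 0.00441) and -0.82 for Sdhd (adjusted p = 0.0248). The adjusted p of Sdhd was 0.0879 under median scaling and 0.0602 without the detection filter. Cox7b read 6.80 and 7.06 with DMSO and 6.94 and 7.19 with embelin in growth medium, where the embelin arrays lay a little higher, in contrast to the values at 48 h given above. The count was 11 and 14 without replicate 1 or 2 of DMSO in growth medium, 10 without replicate 2 of DMSO at 48 h, 7 without replicate 2 of embelin at 48 h, 21 without replicate 2 of embelin in growth medium, and 12 under median scaling. Sdhd lost its call in 5 of the fits that left out 1 array, with adjusted p from 0.0532 to 0.0814. They were those without either DMSO array in growth medium (0.0814 and 0.0532), replicate 1 of DMSO at 48 h (0.0737), replicate 2 of embelin in growth medium (0.0573) and replicate 2 of embelin at 48 h (0.069, with -0.54).

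The same test of the embelin effect at 48 h against that at 24 h called 5 of 68 members lower and 0 higher, against 7.68% and 6.63% of all genes, a share of members near the background. At an unadjusted p under 0.05 the counts were 25 and 0, against 14.7% and 14.4% of all genes. These 5 were Ndufb5 (-0.67, adjusted p = 0.0251), Cox7b (-0.63, adjusted p = 0.0463), Uqcrc1 (-0.63), Atp5o (-0.51) and Ndufv1 (-0.49), the subunit of complex I that binds NADH. Of the 12 fits that left out an array, the call was lost in 5 for Ndufb5, 7 for Cox7b, 4 for Uqcrc1, 9 for Atp5o and 10 for Ndufv1. All 5 calls were lost under median scaling, and that of Cox7b also under 75th percentile scaling (-0.45, adjusted p = 0.0783), in the authors' table (0.0785), without the detection filter (0.0841) and with a trended robust prior (0.0588). Ndufb5, a membrane-arm accessory subunit, read 8.50 and 8.83 at 24 h and 9.07 and 9.10 at 48 h with DMSO, and 8.76 and 8.61 and then 8.47 and 8.39 with embelin. By sign alone, 37 members were higher at 48 h than at 24 h with DMSO and lower with embelin, 20 were higher in both, 11 lower in both and 0 the opposite. The DMSO change was above the embelin change for 61 of 68 members and for 49.5% of all genes. Leaving out 1 array gave 0 to 8 calls: 0 without replicate 1 of embelin at 24 h, replicate 2 of DMSO at 48 h or replicate 2 of embelin at 48 h, 1 without replicate 1 of DMSO at 24 h, 2 without replicate 1 of DMSO at 48 h, 3 without replicate 2 of embelin at 24 h or either DMSO array in growth medium, and 8 without either embelin array in growth medium. The comparisons at 48 h, over time with DMSO and between effects share the DMSO arrays at 48 h and are not separate evidence.

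For 19 genes the array held further detected probes, 24 in all. At 48 h, 21 of the 24 had the same sign as the brightest probe and 18 were called lower. Ndufb8, an accessory subunit of complex I, was the gene whose probes were called in opposite directions: the brightest probe had -0.67 (adjusted p = 0.000355) and a dimmer probe had 0.67 (adjusted p = 0.00923 over all probes), so its direction is uncertain, and the mean of its probes had 0.00 (adjusted p = 0.998). For Atp5j, a peripheral stalk subunit, the brightest probe had -0.48 and another 0.13 (adjusted p = 0.469 over all probes). From growth medium to 48 h with DMSO, these Atp5j probes were called in opposite directions (0.39 and -0.76, adjusted p = 0.0119 and 0.000367 over all probes). Atp5j is among the rises counted there. The dimmer Ndufb8 probe had -0.72 over that course (adjusted p = 0.00339 over all probes), and its brightest was not called (0.18, adjusted p = 0.145).

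The other genes of the pathway were counted at 48 h in the same fit, where 19.9% of all genes were called lower and 19.8% higher. The assembly factors, which build the complexes without staying in them, had 16 of 37 lower and 0 higher, with a median of -0.29. Examples were Ndufaf5 (-0.88, adjusted p = 0.000343) for complex I and Sdhaf3 (-0.86, adjusted p = 0.000334) for complex II. The electron carriers and ubiquinone synthesis genes had 9 of 17 lower and 0 higher, with a median of -0.39. Cycs, which encodes cytochrome c, read 11.72 and 11.61 with DMSO and 10.44 and 10.44 with embelin (log2 fold change -1.22, SE 0.14, adjusted p = 6.37e-05), and Etfb, an electron transfer flavoprotein subunit, had -0.81 (adjusted p = 0.000542). The mitochondrial ribosomal proteins, which translate the mitochondrial messages, had 33 of 71 lower and 0 higher (median -0.26). The import genes had 8 of 19 lower and 1 higher (median -0.28), namely Tomm6 (0.53, adjusted p = 0.00244).

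**Figure D5:**
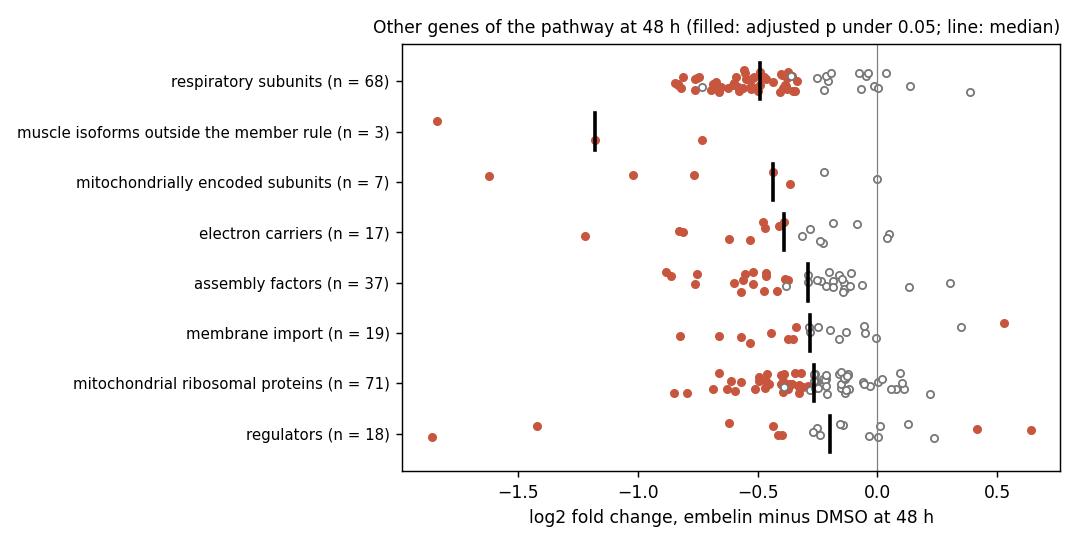
Log2 fold change of embelin minus DMSO at 48 h for the respiratory subunits and 7 other lists of pathway genes; points are genes, filled where the adjusted p was under 0.05, and black lines are medians. Medians lay at -0.49 for the respiratory subunits, -1.18 for the muscle isoforms, -0.44 for the mitochondrially encoded subunits and -0.20 for the regulators, where Ppargc1a is drawn at its fitted -1.86.

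Of 7 tested subunits encoded by mitochondrial DNA, 5 were lower at 48 h and 0 higher, against 19.9% and 19.8% of all genes. Their median was -0.44. The gene of MT-CO2, a catalytic subunit of complex IV, read 12.58 and 12.52 with DMSO and 11.67 and 11.39 with embelin (log2 fold change -1.02, SE 0.13, adjusted p = 0.000197). MT-ND4L, a membrane subunit of complex I, read 8.41 and 8.34 against 7.03 and 6.47 (log2 fold change -1.62, SE 0.21, adjusted p = 0.000211). Both had embelin arrays at 48 h below every other array. MT-ND5 (0.00, adjusted p = 0.999) and MT-CYTB (-0.22, adjusted p = 0.0726) did not pass, and the calls of MT-ND1 and MT-ND4 ended when replicate 1 of DMSO at 48 h was left out (adjusted p = 0.0989 and 0.0923) or replicate 2 of embelin at 48 h (0.219 and 0.0827), and that of MT-ND1 also when replicate 2 of DMSO was (0.0715).

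The 3 muscle isoforms of complex IV left out by the naming rule were also lower at 48 h, and by a wider margin for 2 of them. Cox8b read 12.12 and 12.31 with DMSO and 10.43 and 10.32 with embelin (log2 fold change -1.84, adjusted p = 0.00608). Cox7a1 read 8.10 and 8.33 against 7.09 and 6.98 (-1.18, adjusted p = 0.00171), and Cox6a2 read 13.31 and 13.43 against 12.65 and 12.61 (-0.73, adjusted p = 0.000374). In growth medium Cox8b read 5.61 and 5.83 with DMSO and 5.98 and 7.86 with embelin, the high value being on replicate 2. Cox7a1 was not detected on the DMSO arrays in growth medium (5.05 and 4.92) and was at least 6.99-fold higher at 48 h with DMSO. The general isoform Cox6a1 showed no call at 48 h and its muscle counterpart Cox6a2 did, although the difference between these was not tested.

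Among 18 regulators of mitochondrial genes, 6 were lower and 2 higher at 48 h, against 19.9% and 19.8% of all genes. Their median was -0.20. Ppargc1a, the coactivator PGC-1alpha, was detected on both DMSO arrays (6.21 and 7.23) and on neither embelin array (4.84 and 4.89), and was at least 2.58-fold lower with embelin (adjusted p = 0.000265). Ppargc1b, its relative, read 9.13 and 9.44 against 8.07 and 7.66 (log2 fold change -1.42, adjusted p = 6.22e-05). Nrf1, a transcription factor with sites in many respiratory genes, was higher with embelin, at 9.23 and 9.28 against 8.76 and 8.48 (0.64, adjusted p = 0.0012), as was Twnk, the mitochondrial DNA helicase (0.42, adjusted p = 0.016). Tfam, which packages mitochondrial DNA and acts in its transcription, had -0.43 (adjusted p = 0.0182, and 0.17 under median scaling). Tfam lost its call without replicate 2 of DMSO at 48 h (0.125) or either embelin array at 48 h (0.0504 and 0.0988), and Twnk without replicate 2 of DMSO (0.0947) or replicate 2 of embelin (0.0876) at 48 h. How these regulators bear on the subunit genes was not tested.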

How the data were processed

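Per the file headers, the authors exported the arrays from GenomeStudio (1.8.0; the submitters' processing notes give 2010.2) as bead-level averages. The deposited signal is an intensity per probe, not background-subtracted or normalised. The deposited detection score is a fraction, used here as 1 minus a detection p-value, and the number of beads per probe was read from the same deposited table. The authors' value table holds log2 values; it matched log2 signal minus each array's 75th percentile and each probe's median for 100% of values within 0.006. The labels name a Cy3 label and an Agilent kit, whereas the headers and probe IDs are Illumina's.

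Intensities were background-corrected with limma's normexp on negative controls inferred from the detection p-values, with an offset of 16, then quantile-normalised and log2-transformed (limma 3.58.1, R 4.3.3). A probe was kept where its detection p was under 0.01 on the 2 arrays of any group (16981 of 45281), and the brightest was used per gene (11453 genes), with symbols updated through RefSeq's GRCm38.p6 table: 27760 probes matched a current symbol, 7993 a synonym, and 9528 kept the file's name. Group means were fitted over all 12 arrays (6 residual and 4.53 prior degrees of freedom) with Benjamini-Hochberg adjustment. An "at least" fold was set against the dimmest detected signals. The fit was tested on simulated data.

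Alternatives were the offset of 50, 75th percentile and median scaling, the authors' table, other filters, the mean of a gene's probes, a trended robust prior, the replicate number as a block and each array left out. Same-numbered deviations from the group means correlated from -0.033 to 0.243 over 15 pairs of groups, above 0.1 in 7, among them all 6 pairs of differentiation-medium groups. Since some pairs were not above 0.1 and the labels give no shared origin, the number was not used as a block in the reported fit. Genes named with values were, at 48 h, the up to 4 lowest called members of each complex and all SDH genes, and in each other comparison the 2 largest called changes each way, other than the member not reported; paralogs and genes named beyond these, including list examples and genes that did not pass, were chosen after their values were seen. The values of 1 member are not reported here, though it is in the counts. The members and lists were chosen with earlier results of these data known. Precision is limited by 2 arrays per group.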

Additional observations from a re-analysis of the deposited data

Results flagged for a closer look

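The results below came from the test of a difference between effects, in which the embelin effect (embelin minus DMSO, log2) at 48 h was set against the effect at another time. Against growth medium the effect was lower at 48 h for 28 of 68 members, where 12.5% of all genes were called lower. Among those named in the text, the difference was -0.96 for Cox7b, -0.82 for Sdhd, -0.78 for Uqcrc1, -0.73 for Atp5a1, -0.73 for Ndufs8, -0.71 for Sdhb and -0.69 for Atp5o. It was -0.64 for Ndufb10, -0.64 for Ndufb9, -0.62 for Uqcr11, -0.61 for Atp5g3, -0.60 for Ndufa4, -0.54 for Uqcrc2, -0.47 for Cox5b and -0.40 for Uqcrh. Of the 12 fits that left out an array, Cox7b, Uqcrc1, Ndufs8 and Atp5o were called in all 12, the call of Uqcrh was lost in all 12 (adjusted p from 0.0529 to 0.128), those of Uqcrc2 and Atp5g3 in 6, those of Sdhd, Atp5a1 and Ndufb10 in 5, those of Uqcr11 and Cox5b in 4, those of Ndufb9 and Ndufa4 in 3 and that of Sdhb in 2. Under median scaling the calls of Sdhb, Sdhd, Atp5a1, Ndufb10, Ndufb9, Ndufa4, Uqcrc2 and Uqcrh were lost. Without the detection filter those of Sdhd, Atp5a1 and Atp5g3 were lost. Against 24 h the effect was lower at 48 h for 5 of 68 members, a share near the 7.68% of all genes called lower. Of these, Ndufb5 had -0.67, Cox7b -0.63, Uqcrc1 -0.63 and Atp5o -0.51. These calls were lost in 5, 7, 4 and 9 of the 12 fits, and all were lost under median scaling. Groups of 2 arrays are too small to look for single outlying arrays.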

How the results depend on the processing

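The count of 52 members lower with embelin at 48 h ran from 44 (median scaling) to 59 (75th percentile scaling and the authors' table), was 52 with the replicate block, which moved no other count by over 1.5 times, and 50 without the 3 genes that are not subunits, an alternative chosen after seeing the data; 32 of the 52 genes were called in all alternatives that tested them. Counts over time moved more, and the cause was not tested. Values are given in the order 75th percentile scaling, median scaling, authors' table. For DMSO from growth medium to 24 h, rises went from 6 to 3, 1 and 3 and falls from 13 to 26, 38 and 26. For DMSO to 48 h, rises went from 20 to 12, 4 and 12, and falls from 6 to 15 under median scaling. For embelin to 24 h, falls went from 23 to 40, 43 and 40, and rises from 3 to 1 under median scaling and 5 with a trended robust prior. For embelin to 48 h, rises went from 6 to 3, 1 and 3 and falls from 27 to 47, 50 and 47. On the second day with DMSO, the 19 rises became 9 under median scaling and 30 with the trended prior, and the 0 falls became 1 with an offset of 50, 1 with the mean of probes and 2 with the trended prior. On the second day with embelin, the 2 rises became 1 under median scaling and 1 without the detection filter, and the 5 falls became 1 under median scaling and 11 with the trended prior. The 28 differences between the effects at 48 h and in growth medium became 12 under median scaling. The 5 between 48 h and 24 h became 13 (offset 50), 0 (median scaling), 9 (detected on all arrays), 8 (mean of probes) and 17 (trended prior). With each array left out, the ranges were 37 to 53 lower at 48 h; for DMSO, 2 to 6 rises and 6 to 12 falls to 24 h, 10 to 22 and 3 to 8 to 48 h, and 6 to 20 and 0 to 1 on the second day; for embelin, 2 to 6 and 14 to 24 to 24 h, 5 to 6 and 18 to 27 to 48 h, and 0 to 2 and 1 to 6 on the second day. For differences between effects they were 0 to 1 higher and 7 to 27 lower against growth medium, and 0 to 8 lower against 24 h. At 48 h, Uqcrb, which was not called, ran from -0.085 to 0.088 with an array left out. Median scaling moved the split of all-gene calls at 48 h from 2265 higher and 2275 lower to 2379 and 1461, and gave 27.9% higher among calls for DMSO at 48 h against growth medium in place of 44.2%.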

Other observations

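Counts for the other lists over time with DMSO were as follows. From 24 h to 48 h, where 15.2% of all genes rose and 17.6% fell, 18 of the 37 assembly factors rose and 0 fell in the limma fit, 6 of 17 electron carrier genes rose and 0 fell, and 10 of 71 mitochondrial ribosomal protein genes rose and 2 fell. From growth medium to 48 h, where 27.4% rose and 34.6% fell, 39 of the 71 mitochondrial ribosomal protein genes fell and 3 rose, with a median of -0.29. Differences between these lists and the respiratory subunits were not tested.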
